A study of Homo sapiens with 6 samples.

Results

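DICER1 and 8 of its partners in microRNA processing were followed in 6 libraries of human embryonic stem cells made by Ago2 iCLIP, which crosslinks a protein to its RNA and sequences the bound fragments. The 9 genes were chosen by symbol from the table of 16199 genes, as nuclear and cytoplasmic factors that cut, export or edit microRNA precursors, and all 9 were measured in every library. The cells were of the established line H1. Wild-type cells were compared with CRISPR-Cas9 engineered cells carrying the S1344L substitution of Dicer, either homozygous or hemizygous, with 2 libraries for each of the 3 genotypes. The protocol writes the mutant genotypes pm/pm and pm/fs. All groups, wild-type included, were kept without doxycycline for 10 days and used as 2 dishes per sample. After 2 exposures to ultraviolet light (254 nm, 150 mJ/cm2 each), RNA bound to Ago2, an Argonaute protein that carries microRNAs to their targets, was recovered with an antibody. Neither the number of clones nor of cultures behind each genotype is in the labels. The p-values below therefore reflect how far libraries of a genotype lie apart, and that spread may be technical.

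A primary microRNA transcript is cut in the nucleus by the Microprocessor, made of the RNase III enzyme DROSHA and its RNA-binding partner DGCR8. The helicases DDX5 and DDX17 assist the cleavage of some transcripts, and Exportin-5, encoded by XPO5, carries the hairpin to the cytoplasm. There DICER1 removes the loop in complex with TARBP2 or PRKRA, and the duplex is loaded into Argonaute. ADAR deaminates adenosines in double-stranded RNA, some microRNA precursors among it. DICER1 has a pair of RNase III domains, each of which cuts a strand of the precursor. The counts are reads per gene in an Ago2 library. Ago2 binding, transcript level, fewer cells of a type and less RNA per cell cannot be told apart in them.

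DICER1, DGCR8 and DDX5 are themselves host genes, which is why the microRNAs inside them are shown here: a read from such a hairpin can be counted in its host. By coordinates and strand in RefSeq (GRCh38.p14), 3 of the 9 genes hold 5 hairpins with 8 mature sequences, against 5.89% of the 10692 protein-coding rows of the table with a strand in RefSeq that hold any. None of the 5 hairpins has a row of its own in the table. Capitals mark the seed, bases 2 to 8 counted from the 5′ end, and the 8 seeds all differ. MIR3173 lies within DICER1 on the minus strand, with its arms at chr14:95137961-95137982 and chr14:95137923-95137944. MIR3618 and MIR1306 lie within DGCR8 on the plus strand at chr22:20085797-20085818, chr22:20086072-20086093 and chr22:20086112-20086129. MIR3064 and MIR5047 lie within DDX5 on the minus strand at chr17:64500817-64500837, chr17:64500775-64500797 and chr17:64501230-64501250.
hsa-miR-3173-5p: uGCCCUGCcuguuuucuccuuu
hsa-miR-3173-3p: aAAGGAGGaaauaggcaggcca
hsa-miR-3618: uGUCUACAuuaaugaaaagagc
hsa-miR-1306-5p: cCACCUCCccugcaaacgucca
hsa-miR-1306-3p: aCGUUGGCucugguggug
hsa-miR-3064-5p: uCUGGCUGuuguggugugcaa
hsa-miR-3064-3p: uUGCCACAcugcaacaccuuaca
hsa-miR-5047: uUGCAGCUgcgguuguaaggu

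The libraries held 38.2 M to 52.9 M counts, and the 9 genes together took 0.248% to 0.275% of them. Their summed level was 2505 to 2813 CPM (counts scaled to a common library total), with replicate 1 of wild-type and of hemizygous cells highest. Stem cell markers were read in each library: all 12 markers of primed pluripotent cells were measured, with a summed level of 10970 to 12981 CPM. LIN28A stood at 1627 to 2473 CPM, SOX2 at 341 to 419, NANOG at 143 to 198 and POU5F1 at 84.4 to 129 CPM. The stromal gene COL1A1 stood at 179 to 324 CPM. Markers of fibroblasts and stroma (6 of 9 measured) summed to 639 to 880 CPM and those of neuroectoderm (5 of 7 measured) to 417 to 575 CPM. Of mesendoderm 1 of 7 markers was measured, at 1.23 to 3.07 CPM, and of trophoblast and amnion 1 of 5, at 6.34 to 10.5 CPM. The markers without a row in the table have no value here. Libraries also differed by replicate number, so differences within each number are given beside the pooled ones.

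No gene of the 9 differed between genotypes past the threshold in any of the 3 comparisons. The quasi-likelihood test of edgeR, adjusted over all 16199 genes, called 0 of 9 members and 0% of all genes in each comparison. DESeq2 called 7 genes (0.0432%) in hemizygous against wild-type cells, 10 (0.0617%) in homozygous against wild-type and 10 (0.0617%) in homozygous against hemizygous, and 0 members in each. At an unadjusted p under 0.05 in the fit of genotype means alone there was 1 member, DICER1 in hemizygous cells, where edgeR placed 0.414% of genes as lower and 0.457% as higher. In homozygous against wild-type cells those shares were 1.50% lower and 1.19% higher, and between the mutant genotypes 0.364% lower and 0.401% higher, with 0 members. Each comparison of a mutant with wild-type uses the same 2 wild-type libraries.

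**Figure D1:**
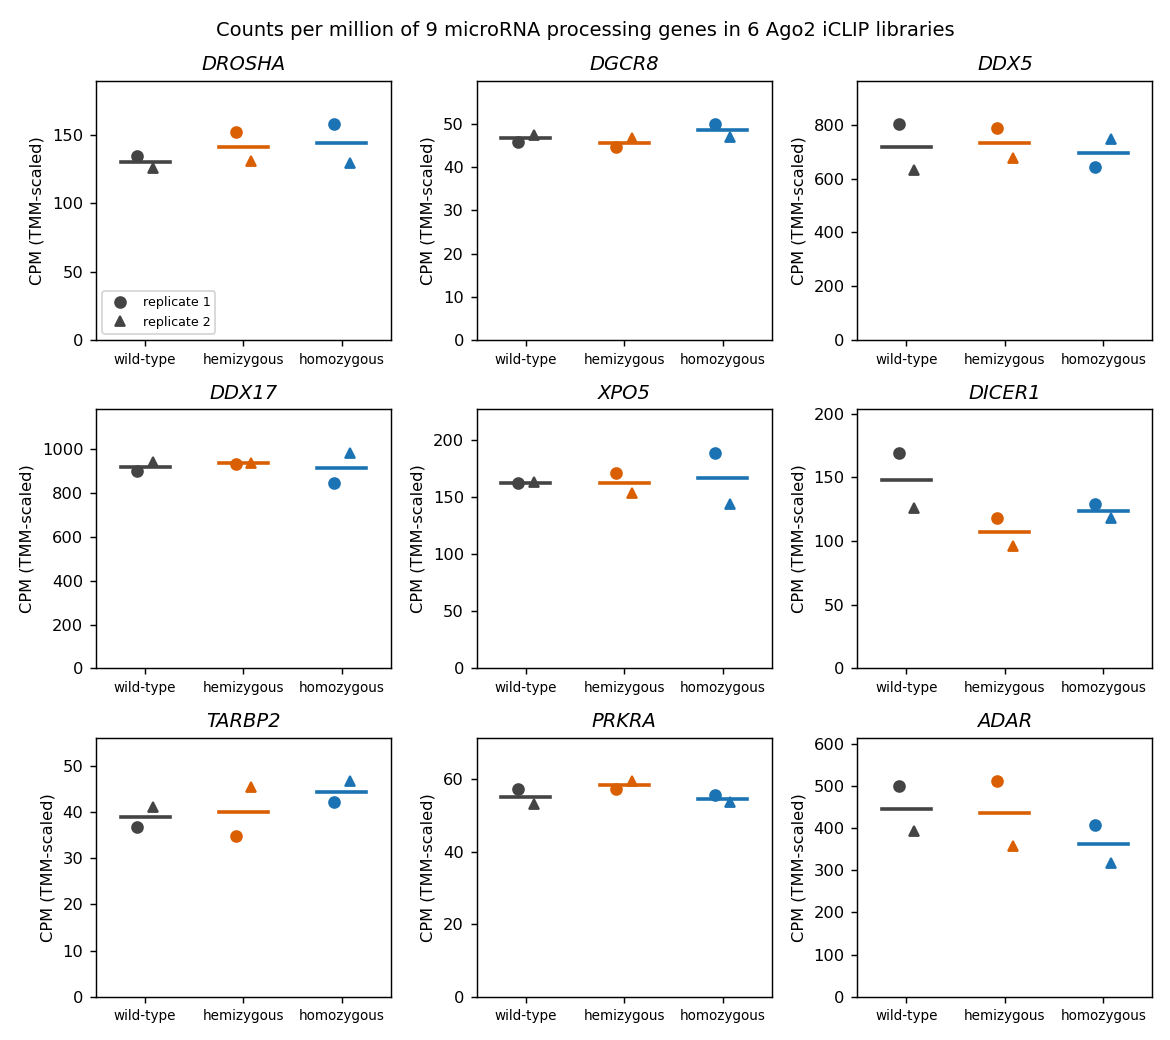
Level of each of the 9 genes in every library, in TMM-scaled CPM on axes that start at 0, with circles for replicate 1, triangles for replicate 2 and a line at the mean of each genotype. DICER1 is lower in both hemizygous libraries (118 and 96.4 CPM) than in both wild-type libraries (169 and 126 CPM), while DGCR8, PRKRA and DDX17 lie nearly level.

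Of the Microprocessor pair, DGCR8 was the steadier gene. The SD of the log2 CPM of DROSHA over the 6 libraries was above that of 39.7% of genes of at least 10 CPM. DROSHA, the nuclear RNase III (minus strand, chr5:31400494-31532093), stood at 134 and 126 CPM in wild-type libraries, 152 and 131 in hemizygous and 158 and 129.9 in homozygous, each pair given as replicate 1 and 2. In each genotype its replicate 1 was the higher library, and the genotypes overlapped. Its means were 130.1 ± 6.21 CPM (SD, n = 2), 142 ± 15.1 and 144 ± 19.9. Against wild-type, hemizygous cells had a log2 fold change of 0.12 and homozygous cells one of 0.15 (SE 0.15 each, edgeR adjusted p 1.00 each). Without homozygous replicate 1 the latter was -0.00198.

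DGCR8, which holds the primary transcript for DROSHA (plus strand, chr22:20080241-20111872), had the narrowest range of the 9 genes. It stood at 45.9 and 47.5 CPM in wild-type, 44.6 and 46.7 in hemizygous and 49.99 and 47.1 in homozygous libraries. Its highest library was 1.12 times its lowest, and the SD of its log2 CPM over the 6 libraries, 0.05, was above that of only 3.37% of the 10031 genes with a mean of at least 10 CPM, whose median was 0.16. Both homozygous libraries were above both hemizygous ones, by a log2 fold change of 0.09 (SE 0.12, edgeR adjusted p 0.999).

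The helicases DDX5 and DDX17, which unwind RNA and join the Microprocessor on some transcripts, overlapped between genotypes in every comparison. DDX5 (minus strand, chr17:64498254-64506866) stood at 803 and 630.4 CPM in wild-type, 787 and 678 in hemizygous and 643 and 749 in homozygous libraries. Replicate 1 was the higher one in wild-type and hemizygous cells and the lower one in homozygous cells. The homozygous difference from wild-type was -0.32 between libraries of replicate 1 and 0.25 between those of replicate 2, on the log2 scale, against a fold change of -0.04 (SE 0.17) over all libraries. DDX17 (minus strand, chr22:38483438-38506311), its close relative, stood at 902 and 941, 936 and 937, and 848 and 986 CPM in the same order. It differed from wild-type by a log2 fold change of 0.02 in hemizygous and -0.01 in homozygous cells (SE 0.13 each), and the latter was 0.02 with upper-quartile scaling. Reads that both helicases could take, if any, cannot be assigned from the table. DDX5 overlaps CEP95 by 105 bases and DDX17 overlaps KDELR3 by 10 bases, each on the other strand. The counts of CEP95 were 9.26% of those of DDX5, and the counts of KDELR3 1.36% of those of DDX17.

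The export factor XPO5 (minus strand, chr6:43522334-43576038) had nearly the same mean in wild-type and hemizygous libraries, 163 ± 0.700 CPM (SD, n = 2) and 163 ± 12.8, and 166 ± 31.9 in homozygous. Its values were 162 and 163 CPM in wild-type, 172 and 154 in hemizygous and 189 and 144 in homozygous libraries. Both the highest and the lowest of the 6 libraries were thus homozygous, and the wild-type libraries lay between them. The hemizygous log2 fold change was -0.00 (SE 0.16) and the homozygous 0.03 (SE 0.16). XPO5 shares part of its locus with POLR1C, on the other strand, whose 5832 counts were 13.3% of those of XPO5.

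DICER1 (minus strand, chr14:95086228-95158010) had the largest difference of the 9 genes, that between hemizygous and wild-type cells. It stood at 169 and 126 CPM in wild-type, 118 and 96.4 in hemizygous and 129 and 118 in homozygous libraries. Both hemizygous libraries were below both wild-type libraries, while homozygous replicate 1 lay between the wild-type ones. A lower position of this kind was held by 1 of 9 members and by 9.21% of all genes in hemizygous cells, and a higher one by 0 members and 8.13%. The mean was 148 ± 30.6 CPM (SD, n = 2), 107.4 ± 15.6 and 123 ± 7.80, which puts the fitted level of hemizygous cells at 0.727 and that of homozygous cells at 0.835 of wild-type.

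The log2 fold change of DICER1 was -0.46 (SE 0.19, 95% interval -0.91 to -0.01) in hemizygous cells. By edgeR its unadjusted p was 0.0456 and its adjusted p 1.00, at rank 135 of 16199 genes. In homozygous cells it was -0.26 (SE 0.19, 95% interval -0.71 to 0.19), and between the mutants 0.20 (SE 0.19, 95% interval -0.25 to 0.65), with edgeR adjusted p values of 1.00 and 0.999. The hemizygous difference was -0.52 between replicate 1 libraries and -0.39 between replicate 2 libraries, and the homozygous one -0.39 and -0.10. Much of the size came from wild-type replicate 1, the highest library: without it the log2 fold change was -0.23 in hemizygous and -0.02 in homozygous cells. The substitution itself cannot be read from counts per gene. DICER1-AS1, which overlaps the start of the locus by 323 bases on the other strand, had 6.14% of the counts of DICER1. It was at 5.26 and 9.29 CPM in wild-type, 4.22 and 10.4 in hemizygous and 5.90 and 11.7 in homozygous libraries, with replicate 2 the higher in each genotype, the opposite order to DICER1.

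TARBP2, a double-stranded RNA-binding partner of DICER1 (plus strand, chr12:53500923-53506431), was the only member whose homozygous libraries both lay above both wild-type libraries. It stood at 36.7 and 41.0 CPM in wild-type, 34.8 and 45.4 in hemizygous and 42.1 and 46.7 in homozygous libraries, with replicate 2 the higher in each genotype. That is 1 of 9 members, against 14.2% of all genes above and 13.6% below, where 0 members stood. Its log2 fold change in homozygous cells was 0.19 (SE 0.17, adjusted p of 1.00 by edgeR), and it was 0.20 between replicate 1 and 0.19 between replicate 2 libraries. The same-locus gene MAP3K12, which overlaps TARBP2 by 617 bases on the other strand, also stood higher in both homozygous libraries (23.7 and 27.7 CPM) than in wild-type replicate 1 (16.8), with wild-type replicate 2 (25.5) between them, and its part in the TARBP2 counts was not tested.

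PRKRA, the other such partner (minus strand, chr2:178431414-178451175), stood at 57.1 and 53.0 CPM in wild-type, 57.1 and 59.4 in hemizygous and 55.5 and 53.8 in homozygous libraries. All 6 values lay within a range of 1.12 times, and its log2 spread was above that of 5.28% of genes of at least 10 CPM. The homozygous libraries were both below the hemizygous ones, by a log2 fold change of -0.09 (SE 0.12, edgeR adjusted p 0.999). Between the mutant genotypes PRKRA was the 1 member lower without overlap (10.4% of all genes) and DGCR8 the 1 member higher (11.0% of all genes). PRKRA overlaps the noncoding RNA CHROMR, whose 5554 counts were 36.9% of those of PRKRA, and reads of the shared 8830 bases cannot be told apart in the table.

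ADAR, the editing enzyme (minus strand, chr1:154582057-154627997), had wider gaps between replicates than between genotype means. It stood at 499 and 393 CPM in wild-type, 511 and 358 in hemizygous and 408 and 317 in homozygous libraries, with replicate 1 the higher in each genotype. Its gap between replicates was 0.35, 0.51 and 0.37 on the log2 scale in that order of genotypes. Homozygous libraries were lower than wild-type ones of the same number by a log2 difference of -0.29 in replicate 1 and -0.31 in replicate 2, although homozygous replicate 1 was above wild-type replicate 2. The log2 fold change was -0.30 (SE 0.23, adjusted p of 1.00 by edgeR) in homozygous and -0.04 (SE 0.23) in hemizygous cells. Without wild-type replicate 1 the homozygous value was -0.11, and without homozygous replicate 1 it was -0.49. The summed fibroblast and stromal markers were at 880 and 797 CPM in wild-type, 848 and 714 in hemizygous and 639 and 684 in homozygous libraries, and their part in the ADAR values was not tested.

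**Figure D2:**
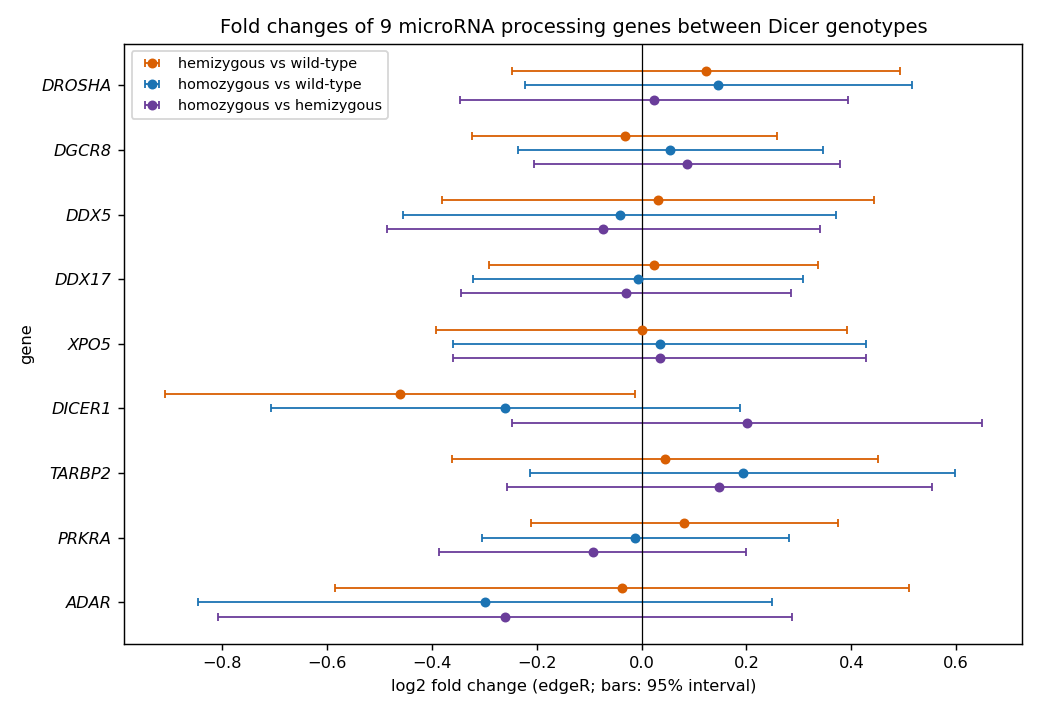
Log2 fold change of each gene in the 3 comparisons (edgeR, all 6 libraries), with bars for the 95% interval and a line at 0. Of the 27 intervals, 1 leaves out 0, that of DICER1 in hemizygous against wild-type cells (-0.91 to -0.01), and none reaches 1 in either direction.

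As a set the 9 genes were spread around 0 in each comparison. Their median log2 fold change was 0.02 in hemizygous against wild-type cells, with 5 above and 4 below 0, where the median of all genes was -0.00 and 49.1% were above 0. In homozygous cells the median was -0.01, with 4 above and 5 below 0 (all genes -0.00, 49.3% above). Between the mutants it was 0.02, with 5 above and 4 below 0 (all genes -0.00, 49.9% above). The median size of change, whatever its sign, was 0.04, 0.05 and 0.09 for the 9 genes and 0.09, 0.14 and 0.14 for all genes, many of which have fewer reads. The 27 intervals of 95% lay between -0.91 and 0.65, so a change of 2-fold or more fell outside each of them. Each interval is taken on its own, without joint coverage, and rests on 2 libraries a genotype whose spread may be technical.

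**Figure D3:**
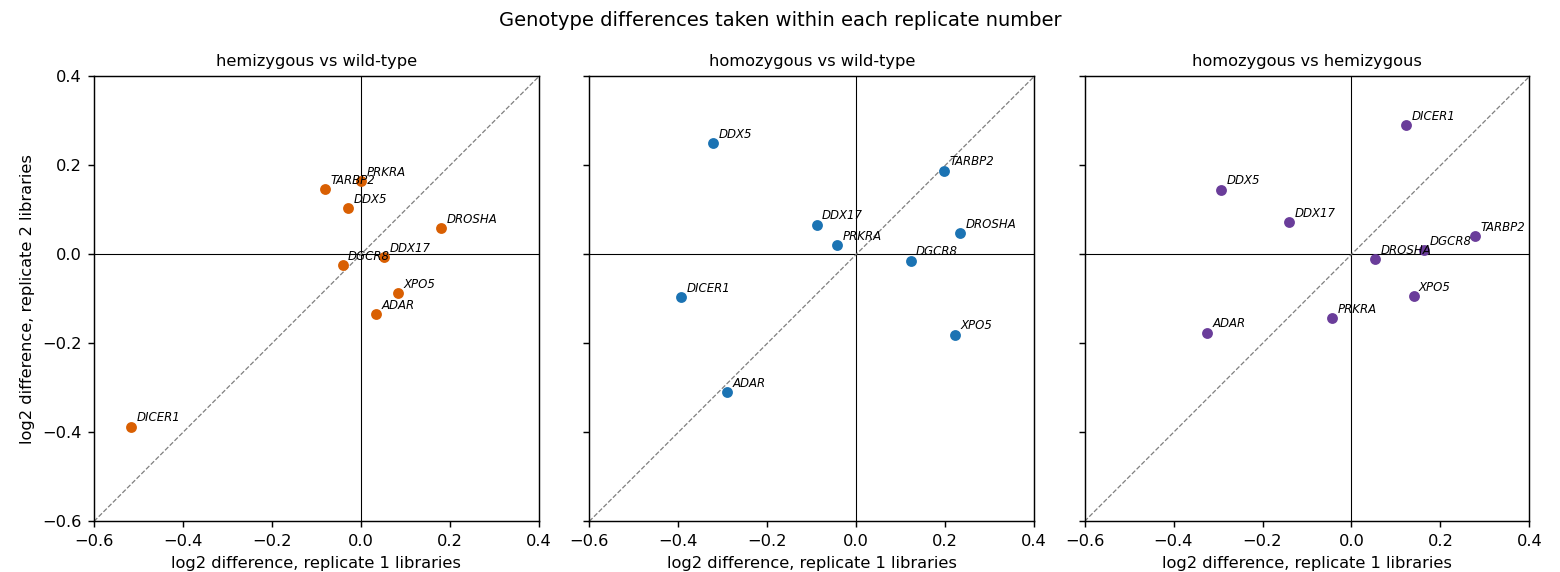
Log2 difference between genotypes for libraries of replicate 1 (horizontal) and replicate 2 (vertical) in the 3 comparisons, with a dashed line where both are equal. DICER1 lies at -0.52 and -0.39 in hemizygous against wild-type cells, away from the other 8 genes, and DDX5 and XPO5 are among the genes whose sign turns between the numbers in homozygous cells.

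Taken within each replicate number, many of the genes did not keep a direction. The difference had the same sign in both numbers for 3 of 9 genes in hemizygous against wild-type cells (DICER1, DROSHA and DGCR8). It did so for 4 in homozygous against wild-type cells (DICER1, DROSHA, TARBP2 and ADAR) and for 5 between the mutants (DICER1, DGCR8, TARBP2, PRKRA and ADAR). PRKRA in hemizygous against wild-type cells was at -1.77e-05 between replicate 1 libraries, so its sign there has little meaning. The share of all genes that kept a sign was not computed, so these counts are not read as a trait of the 9 genes. Over the 9 genes, the median gap between replicates was 0.11 on the log2 scale for wild-type, 0.22 for hemizygous and 0.22 for homozygous libraries. Over all genes, many of which have fewer reads, it was 0.25, 0.29 and 0.21. The largest single gaps were 0.43 for DICER1 in wild-type, 0.51 for ADAR in hemizygous and 0.39 for XPO5 in homozygous libraries. Over the 6 libraries, DICER1 and ADAR had the widest log2 spread of the 9, above that of 82.2% and 83.3% of genes of at least 10 CPM, and DDX17 stood near DGCR8 and PRKRA at 9.50%.

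Ratios between partners do not depend on how libraries are scaled, and 6 were compared. The ratio of DROSHA to DICER1 counts was 0.794 and 0.997 in wild-type, 1.29 and 1.36 in hemizygous and 1.23 and 1.10 in homozygous libraries. All 4 mutant libraries were above both wild-type libraries, and the hemizygous were above the homozygous. The difference in log2 ratio was 0.57 for hemizygous and 0.39 for homozygous against wild-type cells, and -0.19 between the mutants. By an exact permutation test (two-sided) each had p = 0.333, the smallest that 2 libraries against 2 allow, and 0.857 after Benjamini-Hochberg adjustment over the 18 ratio comparisons.

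The same separation was common when other genes were set against DICER1. In hemizygous against wild-type cells 6 of the 8 other members had a ratio to DICER1 that was higher without overlap, and so did 53.6% of all other genes, with 0.173% lower. In homozygous cells it was 4 of 8 members against 30.9% of genes higher and 2.76% lower. Between the mutants 4 of 8 members were lower, as were 40.9% of genes, with 0.994% higher. The DROSHA ratio thus separated the genotypes in a way that a large share of all genes did against DICER1.

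**Figure D4:**
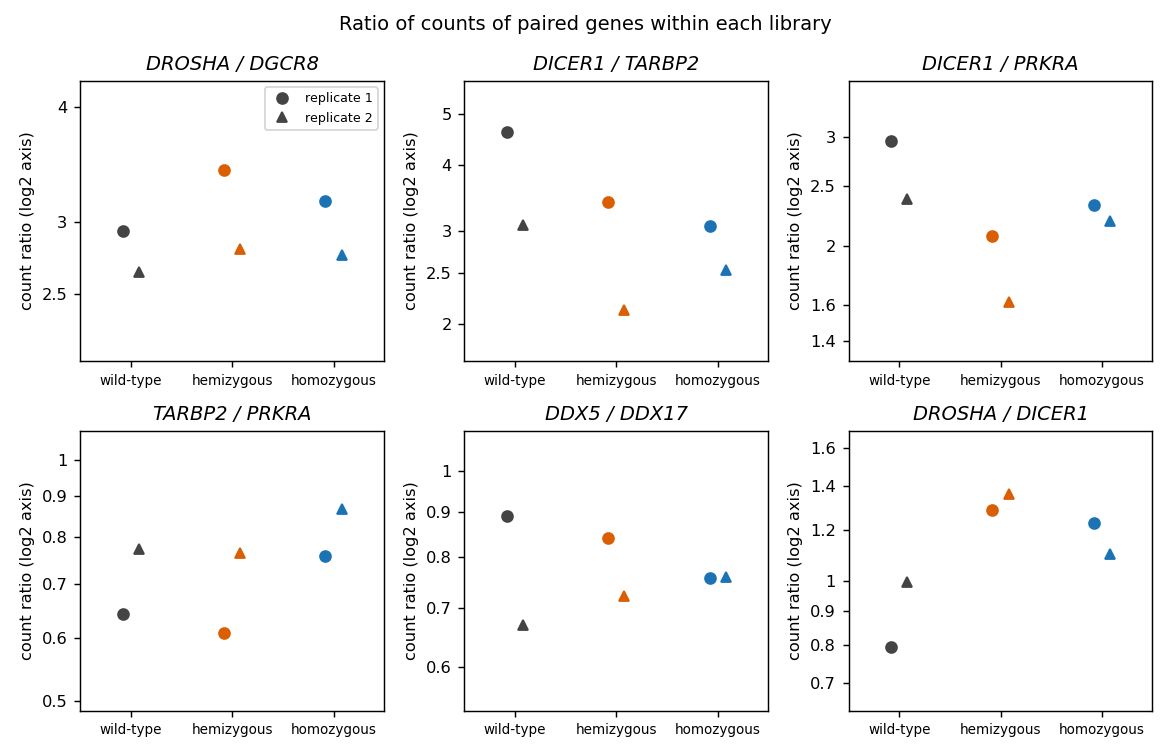
Ratio of counts of paired genes in each library on log2 axes, circles for replicate 1 and triangles for replicate 2. DROSHA over DICER1 is 0.794 and 0.997 in wild-type and 1.10 to 1.36 in mutant libraries, while DDX5 over DDX17 overlaps between all genotypes.

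DICER1 was also set against each of its partners. The ratio of DICER1 to PRKRA was 2.96 and 2.38 in wild-type, 2.07 and 1.62 in hemizygous and 2.33 and 2.19 in homozygous libraries, without overlap in any comparison (exact permutation p = 0.333 each). Its log2 difference from wild-type was -0.53 in hemizygous and -0.23 in homozygous cells. The ratio of DICER1 to TARBP2 was 4.61 and 3.07 in wild-type, 3.41 and 2.12 in hemizygous and 3.06 and 2.52 in homozygous libraries. Here the hemizygous libraries overlapped the wild-type ones (log2 difference -0.48, exact permutation p = 0.667) and the homozygous were just below (-0.44, p = 0.333). The Microprocessor ratio, DROSHA to DGCR8, was 2.93 and 2.64, 3.41 and 2.80, and 3.16 and 2.76 in wild-type, hemizygous and homozygous libraries, and overlapped in each comparison (exact permutation p = 0.667). TARBP2 to PRKRA and DDX5 to DDX17 overlapped as well, with log2 differences of -0.05 to 0.25 and of -0.04 to 0.01.

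Other factors of the pathway, a list of 32 genes with none of the 9 in it, were all measured and 0 were called in any comparison. In hemizygous against wild-type cells 20 were above and 12 below 0, with a median log2 fold change of 0.02. Without overlap 5 of 32 were higher and 2 lower, where all genes had 8.13% higher and 9.21% lower. The smallest unadjusted p values were those of AGO1, an Argonaute (0.29, SE 0.18), LIN28A, which binds let-7 precursors (0.22, SE 0.18), and AGO2 (0.21, SE 0.18). In homozygous against wild-type cells 17 were above and 15 below 0 (median 0.04), with 6 of 32 higher and 5 lower without overlap (14.2% and 13.6% of all genes). SRSF3, a splicing factor that also binds primary microRNA transcripts, was at a log2 fold change of -0.40 (SE 0.20). MBNL1, a splicing regulator, was at -0.43 (SE 0.27). Between the mutants 18 were above and 14 below 0 (median 0.01), with 4 of 32 higher and 3 lower without overlap (11.0% and 10.4% of all genes). The share of all genes above 0 was 49.1%, 49.3% and 49.9% in the 3 comparisons. Here SRSF3 was at -0.39 (SE 0.20). ERH, a partner of DGCR8, was at 0.20 (SE 0.14). The 7 Argonaute and TNRC6 genes, the effectors downstream of processing, include the 4 Argonautes of the list of 32. Their median log2 fold changes were 0.06, -0.01 and 0.00 in the 3 comparisons, with 0 called. In hemizygous against wild-type cells their values went in both directions, from -0.70 to 0.29, with a median size of 0.21 (0.09 for all genes). AGO1, AGO2 and TNRC6B were the 3 of 7 higher without overlap (8.13% of all genes). AGO1 and AGO2 are already among the 5 of 32 given above. TNRC6A, a scaffold of the silencing complex, was the 1 lower (9.21% of all genes). TNRC6A, named after its values were seen, stood at 15.6 and 8.11 CPM in wild-type, 6.75 and 7.91 in hemizygous and 11.5 and 8.10 in homozygous libraries, so wild-type replicate 1 was far above the other wild-type library.

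The 5 genes whose profile over the 6 libraries was most like that of DICER1, among 10030 others of at least 10 CPM, were STC2, ZNF300, TAF4, TP53I3 and RNF14. Likeness was the root-mean-square distance between log2 CPM values centred over the libraries, which was 0.09 for STC2, a secreted glycoprotein, and 0.11 for RNF14, where the median gene stood at 0.26. STC2 stood at 85.9 and 69.0 CPM in wild-type, 67.6 and 54.8 in hemizygous and 74.6 and 58.0 in homozygous libraries. No other member was near: ADAR was closest at 0.225 (rank 2442) and TARBP2 farthest at 0.35 (rank 8281).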

How the data were processed

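The authors deposited whole-number read counts per gene, without normalization. They used hg38, per the submitters' processing notes. Aligner, counter, annotation, strand and molecular identifiers are each not given in the sources used here. The lowest row total was 132, and 0 columns were left unused. Column names equal the sample descriptions. Counts were scaled with TMM, filtered with filterByExpr (all 16199 genes kept) and compared by edgeR's quasi-likelihood test (edgeR 4.0.16, R 4.3.3) in a model of 3 genotype means over all 6 libraries, with Benjamini-Hochberg adjustment over all genes and a threshold of 0.05. The F value gave the standard errors, and the fitted degrees of freedom the intervals. Log2 CPM used a prior count of 0.5. Libraries held 38.2 M to 52.9 M counts, but counting error is larger for genes with fewer reads and was not computed by gene.

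Alternatives were other scalings and filters, DESeq2 1.42.0, limma-voom (limma 3.58.1), a fit of only the genotypes compared, a replicate block, and leaving out each library. Named genes were the 9 members, the 3 of a wider list with the smallest p per comparison, and the 5 nearest to DICER1, except 1 item that is not reported here. Members and lists were chosen with earlier results of these data known. Levels are not compared between genes, since no transcript lengths were used here, and the planned level per coding length was not computed. Proteins were not used here. On simulated counts for 16199 genes, edgeR called 36.0% of genes given a log2 change of 1 and 87.0% of those given 2 in hemizygous against wild-type cells, 40.0% and 93.0% in homozygous against wild-type, and 37.0% and 83.0% between the mutants. Of the genes simulated without a change, 8, 6 and 5 were called in these comparisons, in the same order. Control pull-downs with IgG were not analysed here.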

Additional observations from a re-analysis of the deposited data

How the results depend on the processing

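None of the 9 genes passed an adjusted p of 0.05 in any comparison under any alternative. The number of genes called over the whole table, 0 by edgeR in each comparison (with 141, 435 and 124 genes at an unadjusted p under 0.05 in hemizygous and in homozygous against wild-type cells and between the mutants), was 7, 10 and 10 with DESeq2 and 0 with limma-voom. With the replicate block it was 1, 0 and 1 (with 616, 1942 and 1328 genes at an unadjusted p under 0.05), and with each library left out in turn it ranged over 0 to 2, 0 to 1 and 0 to 3. Replicate numbers are only 2 and the labels name no shared batch, so they were not taken to pair the libraries. With the replicate block the log2 fold change of DICER1 was -0.45 in hemizygous (SE 0.10, edgeR unadjusted p 0.00273, adjusted p 0.999) and -0.25 in homozygous cells (edgeR unadjusted p 0.0457, adjusted p 0.412). ADAR was at -0.30 in homozygous against wild-type cells (edgeR unadjusted p 0.0142, adjusted p 0.350) and at -0.25 between the mutants (edgeR unadjusted p 0.0304, adjusted p 0.573). Members at an unadjusted p under 0.05 were thus DICER1 and ADAR with the block, and DICER1 in hemizygous cells alone in the main fit. In a fit of only the 2 genotypes compared, DICER1 in hemizygous cells was no longer under 0.05 (edgeR unadjusted p 0.0749). The correlation of the gaps between replicates over genes was 0.736 for wild-type and hemizygous, 0.354 for wild-type and homozygous and 0.472 for the mutants.

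Some log2 fold changes turned sign, none of them called. XPO5 in hemizygous cells was 0.00417 with DESeq2's size factors in edgeR, 0.00415 with DESeq2 and 7.77e-06 with only the genotypes compared. With upper-quartile scaling PRKRA and DDX17 in homozygous cells were 0.0175 and 0.0235, and DDX17 between the mutants 9.93e-05. Leaving out a library turned the sign in hemizygous against wild-type cells for DGCR8 (-0.0660 to 0.00889), XPO5 (-0.0741 to 0.0782), TARBP2 (-0.16 to 0.23), ADAR (-0.31 to 0.20), DDX5 (-0.12 to 0.22) and DDX17 (-0.00165 to 0.0647). In homozygous against wild-type cells it did so for DROSHA (-0.00198 to 0.28), XPO5 (-0.18 to 0.22), PRKRA (-0.0519 to 0.0509), DDX5 (-0.19 to 0.15) and DDX17 (-0.12 to 0.0967). Between the mutants it did so for DROSHA (-0.12 to 0.16), XPO5 (-0.18 to 0.22), TARBP2 (-0.0287 to 0.35), ADAR (-0.50 to 0.0194), DDX5 (-0.19 to 0.0416) and DDX17 (-0.14 to 0.0739). Those were not all small: ADAR between the mutants was -0.26 over all libraries, TARBP2 between the mutants 0.15 and DROSHA in homozygous cells 0.15. The cause was not tested. DICER1 kept its sign with each library left out, from -0.65 to -0.23 in hemizygous, -0.44 to -0.02 in homozygous and 0.06 to 0.36 between the mutants. With 2 libraries a genotype, changes of 2-fold were missed more often than called in the simulated counts.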
